A study of Mus musculus with 4 samples.

Results

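The 53 genes described here act in G2 and mitosis, and they were taken by symbol from a list. This list and the other gene lists were chosen with earlier results of these data known. All 53 were found among the 27179 genes of the deposited count table, and all 53 passed the filter on low counts. The cells were plasmacytoid dendritic cells (pDCs), immune cells known for secreting type I interferon, grown from bone marrow precursors of C57BL/6 mice for 8 days with Flt3 ligand. Every culture was stimulated for 24 h with imiquimod (IMQ, 1 µg/ml), a small-molecule ligand of the RNA sensor TLR7, and cells sorted on SiglecH and CD11b were divided by BFP, a fluorescent protein that stands for CXCL10 in the series text. The 2 groups were BFP-positive and BFP-negative cells, with 2 RNA-seq libraries each, and no unstimulated library was analysed here. The titles mark the groups by BFP. A population label calls the BFP-negative cells positive for CXCL10, whereas the series text calls them negative, so only the BFP part was used. Which CD11b gate was taken, what the code shared by libraries of the same replicate number means and whether replicates were separate cultures are not given in the labels, so p-values measure only the spread between these libraries.

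Cells that divide build their mitotic machinery late in each cycle. Cyclin A and cyclin B switch on Cdk1, and Plk1 and the Aurora kinases then drive spindle assembly and chromosome segregation. The anaphase-promoting complex, a ubiquitin ligase, ends mitosis by marking securin and the cyclins for destruction. Most genes of this programme are transcribed together in G2 through the MuvB complex with Mybl2 and Foxm1, and are held down in resting cells by the DREAM complex. Both bind through a promoter element called the cell-cycle genes homology region (CHR), often beside CCAAT boxes that bind NF-Y. Mature pDCs are regarded as largely non-dividing, while their precursors in Flt3 ligand cultures divide.

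Promoter windows of 300 bases, from 250 before to 50 after a gene start, are shown for 8 members because most members with a window hold CHR and CCAAT letters there. They come from RefSeq on GRCm38.p6 and are written 5′ to 3′ along the gene. Capitals mark the CHR (TTTGAA or TTCGAA, the latter its own reverse complement) and the CCAAT box (CCAAT), each on either strand. The first 6 genes rose in BFP-positive cells, Bub3 did not pass the test although its window holds both motifs, and Birc5 rose although its window holds neither. The windows are Ube2c at chr2:164769679-164769978 (plus strand), Plk1 at chr7:122159185-122159484 (plus strand), Ccnb2 at chr9:70421505-70421804 (minus strand), Cdk1 at chr10:69352863-69353162 (minus strand), Cdc20 at chr4:118437294-118437593 (minus strand), Cenpa at chr5:30666636-30666935 (plus strand), Bub3 at chr7:131560120-131560419 (plus strand) and Birc5 at chr11:117848987-117849286 (plus strand).
Ube2c: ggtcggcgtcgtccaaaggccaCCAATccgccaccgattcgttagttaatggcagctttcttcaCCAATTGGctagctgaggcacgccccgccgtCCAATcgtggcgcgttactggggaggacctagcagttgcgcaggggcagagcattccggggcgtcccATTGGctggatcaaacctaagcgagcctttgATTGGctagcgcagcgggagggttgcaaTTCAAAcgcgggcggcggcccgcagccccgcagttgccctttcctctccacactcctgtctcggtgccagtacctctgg
Plk1: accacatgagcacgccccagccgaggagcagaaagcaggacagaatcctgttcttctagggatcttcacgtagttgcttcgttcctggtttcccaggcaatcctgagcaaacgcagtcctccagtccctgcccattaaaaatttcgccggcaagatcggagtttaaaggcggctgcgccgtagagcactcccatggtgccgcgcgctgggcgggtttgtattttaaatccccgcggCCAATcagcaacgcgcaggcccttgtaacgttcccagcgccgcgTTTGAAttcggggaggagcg
Ccnb2: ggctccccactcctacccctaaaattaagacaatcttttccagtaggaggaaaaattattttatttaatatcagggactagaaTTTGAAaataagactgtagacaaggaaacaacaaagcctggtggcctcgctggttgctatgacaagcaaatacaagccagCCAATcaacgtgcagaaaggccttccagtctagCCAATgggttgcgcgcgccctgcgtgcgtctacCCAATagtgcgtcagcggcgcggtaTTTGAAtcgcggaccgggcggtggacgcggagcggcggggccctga
Cdk1: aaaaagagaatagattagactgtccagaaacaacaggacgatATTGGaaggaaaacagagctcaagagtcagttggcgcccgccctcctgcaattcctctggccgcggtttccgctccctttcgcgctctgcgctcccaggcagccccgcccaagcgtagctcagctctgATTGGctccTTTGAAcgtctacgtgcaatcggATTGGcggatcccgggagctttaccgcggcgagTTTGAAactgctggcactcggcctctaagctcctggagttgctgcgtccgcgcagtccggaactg
Cdc20: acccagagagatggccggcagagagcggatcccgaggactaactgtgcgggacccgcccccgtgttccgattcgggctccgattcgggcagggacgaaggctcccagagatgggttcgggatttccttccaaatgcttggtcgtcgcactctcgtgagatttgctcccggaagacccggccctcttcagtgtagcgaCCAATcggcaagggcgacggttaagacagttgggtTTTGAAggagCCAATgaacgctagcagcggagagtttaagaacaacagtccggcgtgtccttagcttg
Cenpa: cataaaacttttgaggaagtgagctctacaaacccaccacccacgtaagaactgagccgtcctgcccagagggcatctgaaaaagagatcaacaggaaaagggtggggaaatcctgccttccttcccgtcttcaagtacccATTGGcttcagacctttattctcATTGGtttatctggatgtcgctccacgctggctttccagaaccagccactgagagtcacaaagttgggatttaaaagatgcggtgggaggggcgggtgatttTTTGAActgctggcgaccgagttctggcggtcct
Bub3: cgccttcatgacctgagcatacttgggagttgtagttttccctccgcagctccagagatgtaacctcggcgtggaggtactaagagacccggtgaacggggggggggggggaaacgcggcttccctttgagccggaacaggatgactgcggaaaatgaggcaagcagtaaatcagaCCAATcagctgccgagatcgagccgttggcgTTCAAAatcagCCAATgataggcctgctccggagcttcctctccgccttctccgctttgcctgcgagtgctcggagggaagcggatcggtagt
Birc5: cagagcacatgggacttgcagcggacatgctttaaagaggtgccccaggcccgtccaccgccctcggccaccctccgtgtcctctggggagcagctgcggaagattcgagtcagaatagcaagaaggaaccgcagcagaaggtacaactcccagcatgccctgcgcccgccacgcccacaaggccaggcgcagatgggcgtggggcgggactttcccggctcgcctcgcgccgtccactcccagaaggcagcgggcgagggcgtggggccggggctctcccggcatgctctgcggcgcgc

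Of the 53 genes, RefSeq promoter windows were matched for 45; Ccna2, Aurkb, Incenp, Cdc25c, Kif20a, Tpx2, Smc4 and Foxm1 were not matched. The CHR letters stood in at least 1 window of 37 of the 45 genes, or 82.2%, against 21.7% of the 27025 genes in the promoter table and 16.6% of the 9005 tested genes with a window. Within 50 bases of the start on either side, they stood in 71.1% of the 45 genes and in 6.12% of all genes. The CCAAT letters stood in 75.6% of the 45 genes and 41.1% of all genes, and both motifs in 68.9% and 8.61%. An E2F-like motif (TTCGCG or TTTCCCGC, either strand) was found in 13.3% of the 45 genes, 5.75% of all genes and 11.8% of the tested genes. Among the 45, the CHR letters stood in 14 of 19 genes that rose (73.7%) and in 23 of 26 that did not pass the test (88.5%). Among 684 genes with a window that rose and are not members, 21.3% had the CHR letters. In Ube2c the CHR lay 29 bases before the start, with CCAAT letters at 57 and 88 bases before it. In Cenpa and Plk1 the CHR began at bases 17 and 31 after the start. These matches are letters only, and no binding was measured.

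**Figure D1:**
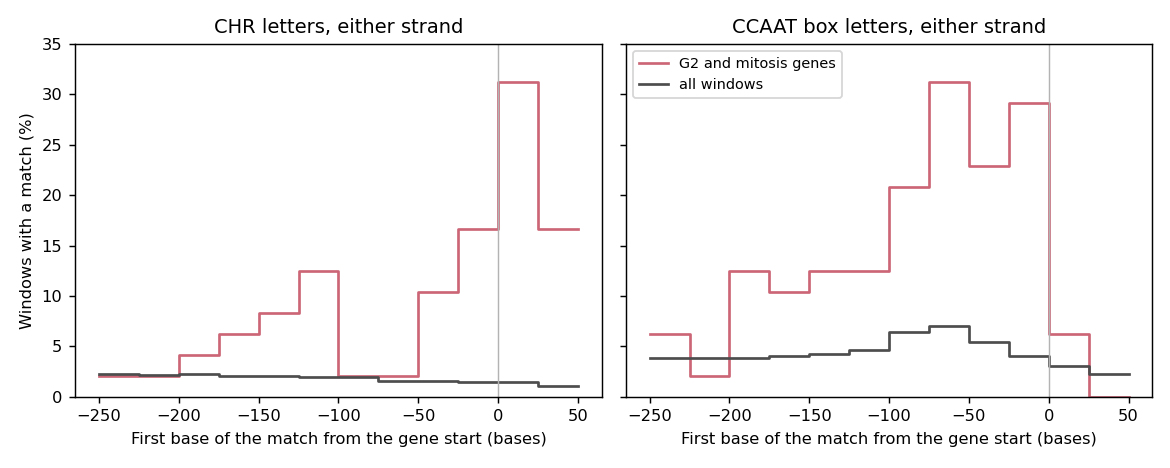
Share of 300-base promoter windows (y axis, percent) with a match whose first base falls in each 25-base bin (x axis, bases from the gene start), for 48 windows of G2 and mitosis genes (red) and all 32851 windows (grey). CHR letters peak at 31.2% of the red windows in the first 25 bases after the start against 1.43% of all windows, and CCAAT letters at 31.2% between 75 and 50 bases before the start against 6.99%.

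Coordinates of genes are those of RefSeq on GRCm38.p6. As a check of the labels, Cxcl10 was at 0.241 and 1.498 CPM in the BFP-negative libraries and 12.8 and 12.7 CPM in the BFP-positive ones, a rise with log2FC 3.85 and SE 0.68 (adjusted p = 0.00557). Levels are CPM (counts divided by the library total and put on a common scale) after TMM scaling for library composition, and n = 2 libraries per group throughout. Where values of 4 libraries follow each other, the BFP-negative pair stands first, each pair in the order of its replicate numbers. Log2 fold changes (log2FC) are of BFP-positive relative to BFP-negative cells, with the standard error (SE) of edgeR's quasi-likelihood test, and adjusted p-values are Benjamini-Hochberg values over all 11706 genes tested, with a threshold of 0.05. Library totals ran from 11868254 to 12570117 counts, and a single count equals 0.0789 to 0.0858 CPM.

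G2 and mitosis genes were higher in BFP-positive cells in 21 of 53 cases, and none fell. That is 39.6% of the members, beside 7.6% of all genes tested that rose and 3.51% that fell (890 and 411 genes). The list was chosen with earlier results of these data known, so this share only describes it. The median log2 fold change over the 53 genes was 1.13, a ratio of 2.19, against -0.02 over all genes tested. The fold change was above 0 in 49 of the 53, and the 21 that rose did so 1.73-fold to 7.72-fold, 17 of them by at least 2-fold. No member was lower at an unadjusted p under 0.05, and none was called lower by DESeq2 or limma-voom. Both BFP-positive libraries lay above both BFP-negative ones in 40 of 53 members, or 75.5%, beside 27.1% of all genes; the reverse order occurred in 0 members and 27.1% of all genes. Within replicate number 1 the median log2 ratio of the members was 1.12 and within number 2 it was 1.13, against -0.02 and 0.00 over all genes tested. The members' counts made up 0.0995% and 0.0957% of the BFP-negative libraries and 0.162% and 0.163% of the BFP-positive ones. In bulk RNA a larger share of cells in G2 or mitosis and more of these transcripts per cell cannot be told apart.

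The count of members that rose was 16 to 22 when 1 library was left out and 14 to 26 over all alternative fits. The calls of 11 genes held in every such fit, namely Ccna2, Ccnb2, Cdk1, Plk1, Aurka, Cenpa, Birc5, Cdca8, Nusap1, Cdc20 and Ube2c. Library totals in place of TMM ended the calls of Ccnb1, Ncapd2 and Prc1 (adjusted p = 0.0556, 0.0588 and 0.0520). On the deposited log2 RPKM values, limma ended those of Ccnb1, Ccnf, Ncapd2, Nuf2, Spc25, Bub1b and Prc1 (adjusted p from 0.0561 to 0.116). Over all genes, without BFP-positive replicate 2 the number that rose was 559, and without BFP-positive replicate 1 the number that fell was 245. On the log2(RPKM + 1) scale the split over all genes was 850 higher and 629 lower. The kit does not mark strand, and 5 of the 21 genes overlap another protein-coding gene in RefSeq (Ccna2, Aurka, Nusap1, Cdc20 and Prc1), so reads of such partners may be mixed there; 16 members rose without any such overlap. Ccnb1, Ccnb2, Kif22 and Kif4 have a pseudogene of the same name in RefSeq, and reads of such copies may be split.

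Markers of other cells that such cultures hold were also read, and some rose, some fell and others did not pass the test. Summed levels of 10 progenitor markers were 27.9 and 32.3 CPM in BFP-negative and 34.5 and 43.5 CPM in BFP-positive libraries; 6 were tested, none passed, and Elane was at 0 in every library and Mpo in the BFP-negative ones. The 6 tested had log2 fold changes from -1.11 (Myb) to 3.48 (Cd34), 4 of them above 0. Conventional dendritic cell markers rose in 4 of 10 tested cases, with sums of 723 to 732 CPM and 975 to 1036 CPM. Such counts in this paragraph stand beside 7.6% of all genes tested that rose and 3.51% that fell. Monocyte and macrophage markers rose in 6 and fell in 2 of 10. The 2 that fell were Adgre1 and Apoe, and log2 fold changes ran from -3.40 to 7.74. Sums were 652 to 786 CPM and 1392 to 1541 CPM, and C1qa was at 0 in every library. Csf1r, the receptor for the macrophage growth factor, had 3 and 0 counts in BFP-negative and 265 and 398 counts in BFP-positive libraries. Of 4 tested B cell markers 2 fell, with sums of 121 to 123 CPM and 94.7 to 99.6 CPM, and Ebf1 was at 0 in BFP-positive cells. The 13 pDC markers summed to 24300 to 28867 CPM and 19319 to 20227 CPM, with 2 higher and 4 lower. Sums over T and NK cell markers were 3.15 to 10.8 CPM and 3.09 to 7.41 CPM (Cd3g, Gzma and Prf1 at 0 in every library), and over granulocyte, mast cell and erythroid markers 15.6 to 28.1 CPM and 11.8 to 31.4 CPM, with none past the test. The part of these cells in the result for the G2 and mitosis genes was not tested.

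**Figure D2:**
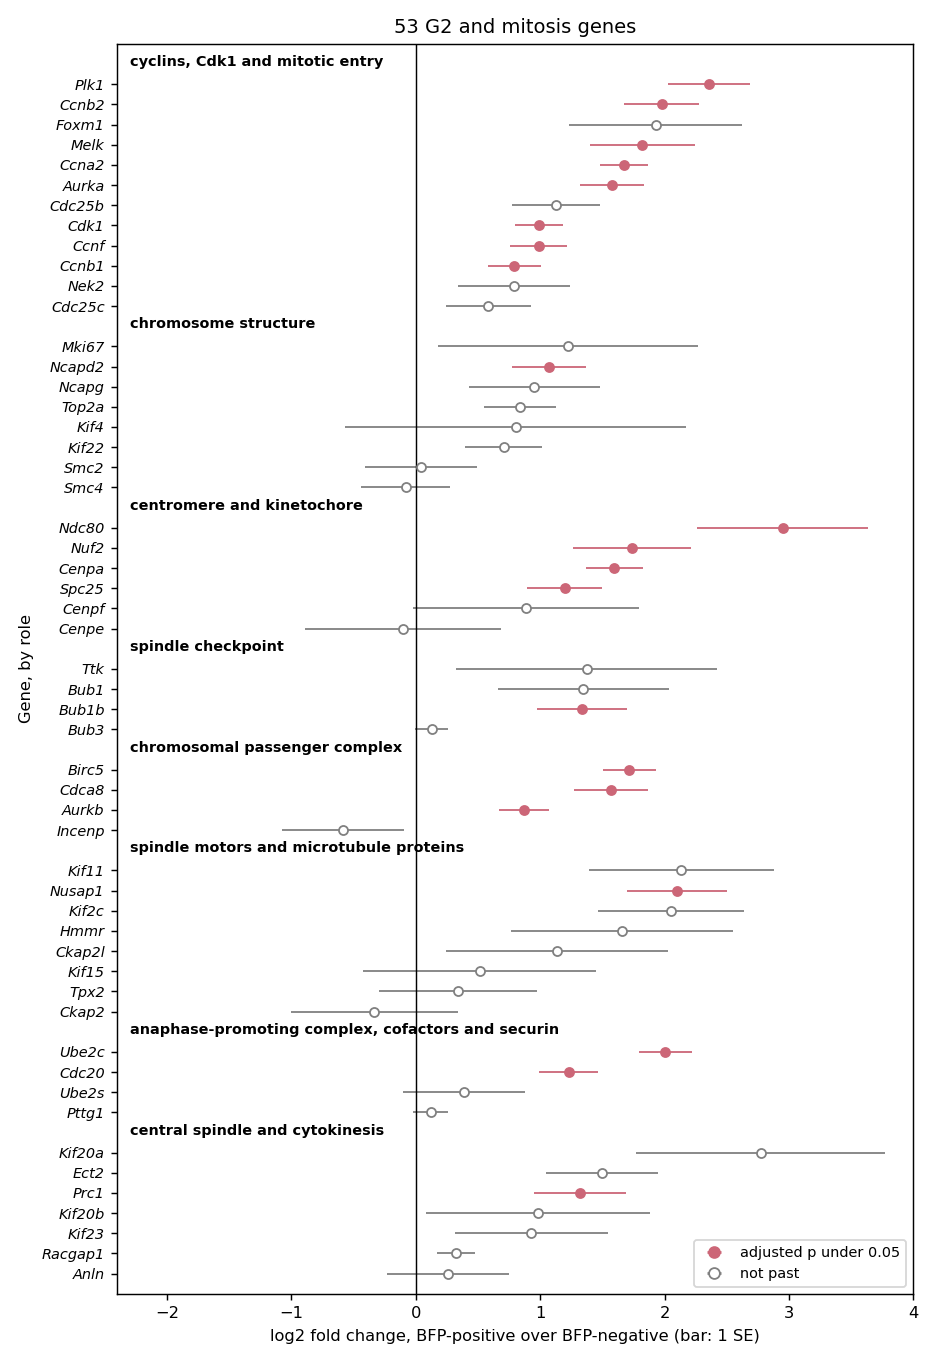
Log2 fold change of each of the 53 genes (x axis, BFP-positive over BFP-negative, bar 1 SE from the quasi-likelihood fit), grouped by role; filled red points passed an adjusted p of 0.05 and open grey points did not. The 21 filled points lie between 0.79 and 2.95, and 4 open points lie below 0.

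Counts of genes that rose in this and the next role groups stand beside 7.6% of all genes tested. Of 12 genes of cyclins, Cdk1 and mitotic entry, 8 rose, and all 12 had a fold change above 0 (median log2 fold change 1.35). Ccna2 (Entrez gene 12428, chr3:36564865-36573038), the cyclin that partners Cdk2 in S phase and Cdk1 in G2, was at 23.0 and 22.2 CPM in the BFP-negative libraries and at 69.3 and 74.7 CPM in the BFP-positive ones. The groups were far apart beside the spread within each, with log2FC 1.67, SE 0.19, adjusted p = 0.000462. Ccnb2 (chr9:70407689-70421554), a B-type cyclin, was at 9.08 and 8.83 CPM and at 27.5 and 43.2 CPM, a rise of 3.94-fold (adjusted p = 0.00242). Ccnb1 (chr13:100778739-100786486), the main mitotic cyclin, rose from 25.7 and 24.3 to 39.9 and 46.7 CPM, or 1.73-fold (adjusted p = 0.0412). Their kinase Cdk1 (chr10:69335146-69352912) was at 36.7 and 43.8 CPM and at 86.7 and 73.4 CPM (log2FC 0.99, SE 0.19, adjusted p = 0.00831). Ccnf (chr17:24223230-24251409), a cyclin that serves as a ubiquitin ligase subunit, rose 1.98-fold, from 26.7 and 19.6 to 45.3 and 46.5 CPM. Per length the BFP-negative cells held more Cdk1 (14.4 RPKM, a level in CPM divided by transcript length in kilobases) than Ccna2 (8.23), Ccnb1 (11.0) or Ccnb2 (5.95). In BFP-positive cells the 4 levels were 27.4, 25.02, 18.3 and 22.4 RPKM in that order.

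Among the mitotic kinases, Plk1 (chr7:122159435-122169884), which drives mitotic entry and spindle assembly, had the largest rise, 5.11-fold. It was at 5.14 and 9.38 CPM in BFP-negative and at 34.0 and 40.4 CPM in BFP-positive libraries (log2FC 2.35, SE 0.33, adjusted p = 0.00145). Aurka (chr2:172356190-172370886), the Aurora kinase of the spindle poles, rose 2.99-fold from 24.0 and 15.1 to 52.3 and 64.5 CPM. Melk (chr4:44300909-44364675), a kinase gene of dividing cells, rose from 6.59 and 3.15 to 15.5 and 18.9 CPM. Every BFP-positive value of these 3 genes was above every BFP-negative one, as in all 21 genes picked by the test on these libraries and in 27.1% of all genes. Nek2, a centrosome kinase, was at 15.03 and 8.60 CPM and at 11.6 and 29.2 CPM, so its groups overlapped. The phosphatase genes that activate Cdk1 did not pass, with log2 fold changes of 1.13, SE 0.35 for Cdc25b and 0.58, SE 0.34 for Cdc25c (adjusted p = 0.0705 and 0.344). Cdc25b passed on leaving out BFP-negative replicate 2 (0.0315), and Nek2 on leaving out BFP-positive replicate 1 (0.0399). Foxm1, a transcription factor of this programme, had 18 and 15 counts and 78 and 41 counts (log2FC 1.93, SE 0.70, adjusted p = 0.113). The call of Ccnb1 was lost on leaving out any 1 library. Its adjusted p was then 0.0733 or 0.0945 (BFP-negative replicate 1 or 2 left out) and 0.0656 or 0.223 (BFP-positive replicate 1 or 2). Ccnf lost it when replicate 2 of either group was left out (0.0710 for BFP-negative, 0.0602 for BFP-positive), and Melk without BFP-positive replicate 2 (0.0607).

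**Figure D3:**
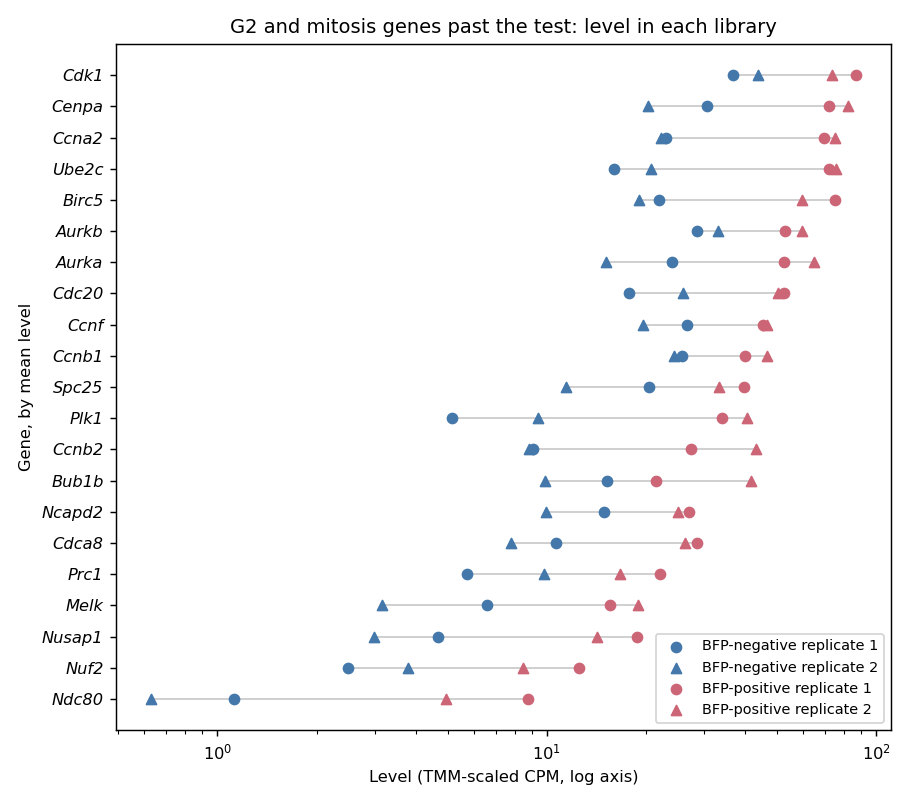
Level of the 21 genes that passed the test (x axis, TMM-scaled CPM, log axis) in each library, with BFP-negative libraries in blue, BFP-positive ones in red, replicate 1 as circles and replicate 2 as triangles. In all 21 rows both red points lie to the right of both blue points, from Ndc80 at 0.631 to 8.75 CPM up to Cdk1 at 36.7 to 86.7 CPM. The genes were picked by the test on these same libraries, so this order adds no support. It occurred in 27.1% of all genes tested.

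Of 4 genes of ubiquitin transfer and securin in mitotic exit, 2 rose. Ube2c (Entrez gene 68612, chr2:164769929-164772902), the enzyme that passes the first ubiquitin to substrates of the anaphase-promoting complex, was at 16.0 and 20.7 CPM and at 71.9 and 75.6 CPM. Its rise of 4.01-fold had the smallest p of all members (log2FC 2.005, SE 0.21, adjusted p = 0.000291). Cdc20 (chr4:118432901-118437343), the activator of that ligase in metaphase, rose 2.35-fold from 17.8 and 25.9 to 52.4 and 50.2 CPM (adjusted p = 0.00848). Ube2s, the enzyme that lengthens the ubiquitin chains, was low at 4.34 and 4.81 CPM and at 5.32 and 6.67 CPM (log2FC 0.39, SE 0.49). Pttg1, which encodes securin, the inhibitor of separase, was abundant and nearly level at 143 and 142 CPM and at 159 and 151 CPM (log2FC 0.12, SE 0.14, adjusted p = 0.664). The core subunits of the ligase, with its other activator Fzr1, showed no call among 15 genes tested (1 higher and 1 lower at an unadjusted p under 0.05, 0 in DESeq2) and a median log2 fold change of 0.03. Among all genes tested 7.6% rose and 3.51% fell. Fzr1 itself was at 114 and 129 CPM and at 145 and 154 CPM (log2FC 0.30, SE 0.15, adjusted p = 0.241).

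The chromosomal passenger complex corrects kinetochore attachments, and 3 of its 4 genes rose. Birc5 (Entrez gene 11799, chr11:117849237-117855743), which encodes survivin, was at 21.9 and 19.0 CPM and at 74.9 and 59.5 CPM, a rise of 3.29-fold (log2FC 1.72, SE 0.22, adjusted p = 0.000694). Cdca8 (chr4:124918465-124936917), which encodes borealin, rose 2.97-fold from 10.7 and 7.81 to 28.6 and 26.3 CPM. The kinase Aurkb (chr11:69045624-69051664) rose 1.82-fold from 28.5 and 33.0 to 52.9 and 59.3 CPM, a call lost on leaving out BFP-negative replicate 1 (adjusted p = 0.0691) or BFP-positive replicate 2 (0.105). Incenp, the scaffold that joins the other parts, was at 13.0 and 11.7 CPM and at 4.03 and 12.4 CPM (log2FC -0.58, SE 0.49, adjusted p = 0.529). Its low value stood in BFP-positive replicate 1, and replicate 2 lay within the range of the BFP-negative libraries. Per length, Incenp at 3.93 RPKM was close to Birc5 at 6.12 and Cdca8 at 5.84 in BFP-negative cells. In BFP-positive cells it was at 2.50 RPKM beside 19.2 and 16.5.

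At the centromere and kinetochore, 4 of 6 genes rose. Cenpa (chr5:30666877-30674837), the histone variant that marks centromeres, was at 30.5 and 20.3 CPM and at 71.8 and 81.9 CPM (3.03-fold, adjusted p = 0.00173). The Ndc80 complex, which holds spindle microtubules, has 4 subunits, and all 4 genes rose. Ndc80 (chr17:71496100-71526857) went from 14 and 8 counts to 102 and 60 counts, and its log2 fold change of 2.95, SE 0.69 was the largest of the 21 (adjusted p = 0.0213). Nuf2 (chr1:169497934-169531464) rose 3.34-fold from 2.49 and 3.79 to 12.5 and 8.48 CPM, and Spc25 (chr2:69193895-69206213) 2.29-fold from 20.4 and 11.4 to 39.7 and 33.3 CPM. Spc24, the remaining subunit and not on the member list, rose 1.83-fold from 43.8 and 44.2 to 82.6 and 78.6 CPM. Their levels per length were far from equal, at 33.3, 10.3, 1.34 and 0.417 RPKM for Spc24, Spc25, Nuf2 and Ndc80 in BFP-negative cells. In BFP-positive cells they were 58.4, 22.6, 4.28 and 3.05 RPKM. Cenpe and Cenpf, which encode very large kinetochore proteins, had 9 to 38 counts in a library and did not pass. Without BFP-positive replicate 1, Ndc80, Nuf2 and Spc25 lost their calls (adjusted p = 0.228, 0.263 and 0.0829). Nuf2 also lost it without BFP-negative replicate 1 (0.0951), and Spc25 without BFP-negative replicate 2 (0.0825).

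**Figure D4:**
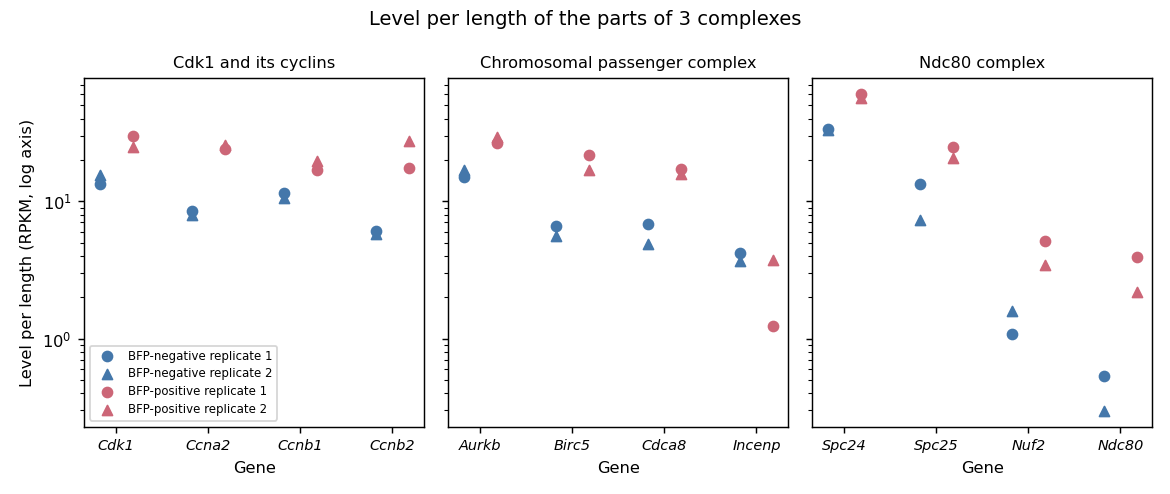
Level per length (y axis, RPKM from the deposited log2 values, log axis) of genes of Cdk1 and its cyclins, the chromosomal passenger complex and the Ndc80 complex in each library, with BFP-negative libraries in blue and BFP-positive ones in red. Red points lie above blue points for 11 of the 12 genes, and those of Incenp do not. The 11 had passed the test on these same libraries, so this order adds no support. By CPM it occurred in 27.1% of all genes tested.

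The spindle checkpoint delays anaphase until every chromosome is attached, and 1 of its 4 genes rose, beside 7.6% of all genes tested. Bub1b (chr2:118598202-118641592), which encodes the checkpoint protein BubR1, was at 15.2 and 9.86 CPM and at 21.4 and 41.7 CPM (2.52-fold, adjusted p = 0.0412). Its log2 fold change of 1.33 was 0.77 without BFP-positive replicate 2 (adjusted p = 0.322), and the call was also lost without BFP-negative replicate 2 (0.0819). Bub3, its partner, which also serves in interphase, was the most abundant member and nearly level, at 225 and 254 CPM and at 260 and 263 CPM (log2FC 0.13, SE 0.13, adjusted p = 0.620). The checkpoint kinase genes were thinly covered, Bub1 with 20 and 53 counts and 130 and 44 counts, and Ttk with 2 and 20 counts and 28 and 26 counts. Neither passed.

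Of 8 spindle motor and microtubule protein genes, Nusap1 alone rose, beside 7.6% of all genes tested. Nusap1 (chr2:119618298-119650165), which bundles spindle microtubules near chromosomes, was at 4.66 and 2.997 CPM and at 18.8 and 14.2 CPM, a rise of 4.30-fold (log2FC 2.10, SE 0.40, adjusted p = 0.00826). The motor genes Kif11 and Kif2c had fitted log2 fold changes as large, 2.14 and 2.05, but SE of 0.75 and 0.59 and adjusted p = 0.102 and 0.0511. Kif2c, at 3.21 and 1.34 CPM and at 12.3 and 6.67 CPM, passed in DESeq2 (adjusted p = 0.0249) and not in limma-voom. The other 5, Kif15, Tpx2, Hmmr, Ckap2 and Ckap2l, did not pass and had log2 fold changes from -0.33 for Ckap2 to 1.66 for Hmmr. In the BFP-negative libraries Tpx2 was at 7.79 and 1.97 CPM and Ckap2l at 4.10 and 0.394 CPM, so the spread within that group was wide. Leaving out BFP-negative replicate 1, 4 of the 8 genes passed (Nusap1, Kif11, Kif2c and Ckap2l), with log2 fold changes of 3.595 for Kif11 and 3.62 for Ckap2l. Leaving out BFP-positive replicate 2, Nusap1, Kif11 and Kif2c did.

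Among 7 genes of the central spindle and cytokinesis, 1 rose, beside 7.6% of all genes tested. Prc1 (chr7:80294445-80316259), which cross-links midzone microtubules, rose 2.49-fold. It was at 5.71 and 9.78 CPM and at 22.1 and 16.6 CPM (adjusted p = 0.0467), and the call was lost on leaving out BFP-negative replicate 1 (0.137) or BFP-positive replicate 1 (0.187). Racgap1, a subunit of the centralspindlin complex, was abundant at 90.6 and 84.5 CPM and at 105 and 114 CPM (log2FC 0.32, SE 0.15, adjusted p = 0.231). Its motor partner Kif23 was low at 1.69 and 4.65 CPM and at 5.49 and 6.59 CPM (log2FC 0.93, SE 0.62). Ect2, the exchange factor that starts furrowing, was at 6.91 and 3.08 CPM and at 15.8 and 12.4 CPM (log2FC 1.497, SE 0.45, adjusted p = 0.0623), and it passed in DESeq2 (0.0420) and limma-voom (0.0438) and on leaving out BFP-negative replicate 1 (log2FC 2.20, adjusted p = 0.00703). Kif20a had 1 and 18 counts and 76 and 47 counts, and its log2 fold change of 2.77 carried an SE of 1.00. It was 5.86 on leaving out BFP-negative replicate 2, when Kif20a passed (adjusted p = 0.00442), as it did on the log2(RPKM + 1) scale (0.0422). Kif20b was at 0.643 and 1.42 CPM and at 1.46 and 2.63 CPM. Anln, an actin-binding furrow protein, was at 5.71 and 4.18 CPM and at 5.49 and 6.34 CPM, with overlap.

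Among 8 genes of chromosome structure, 1 rose, beside 7.6% of all genes tested. Ncapd2 (chr6:125168007-125192100), a condensin subunit, rose 2.10-fold from 14.9 and 9.94 to 27.0 and 25.02 CPM (adjusted p = 0.0452). Ncapd2 passed without BFP-negative replicate 1 and with no other library left out (adjusted p = 0.140 for BFP-negative replicate 2, 0.136 and 0.0826 for BFP-positive replicates 1 and 2). Smc2 and Smc4, the ATPase core of condensin, had log2 fold changes of 0.04, SE 0.45 and -0.08, SE 0.36, with overlapping groups. Ncapg, another condensin subunit, was at 2.57 and 7.49 CPM and at 8.50 and 11.0 CPM (log2FC 0.95, SE 0.53), and passed on leaving out BFP-negative replicate 2 (log2FC 1.94, adjusted p = 0.0380). Top2a, which untangles DNA, was at 21.6 and 13.7 CPM and at 34.8 and 28.3 CPM (log2FC 0.84, SE 0.29, adjusted p = 0.0949), and passed on leaving out BFP-negative replicate 1 (0.0283). Mki67, widely used to mark dividing cells, had 2 and 35 counts and 52 and 29 counts, so its groups overlapped. The chromosome motor genes Kif22 and Kif4 did not pass, though Kif22 did on leaving out BFP-negative replicate 2 (adjusted p = 0.0203), and Kif4 had 16, 0, 8 and 19 counts in the 4 libraries.

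Of 29 members with a mean of at least 10 CPM, 19 rose (65.5%), beside 8.84% of all tested genes at that level. Of the 24 lower members, Ndc80 and Nuf2 rose, beside 7.6% of all genes tested at any level. The median SE of the log2 fold change was 0.30 in the first group and 0.69 in the second. Of 37 members up to 4 kb long by the length that the deposited RPKM values imply, 20 rose, beside 8.48% of all tested genes of that length, and of the 16 longer members 1 rose, beside 5.12%. The 4 kb limit was chosen after the values were seen. Across the 53 genes, length and mean RPKM had a Spearman correlation of -0.78, which is a description over genes that share the same 4 libraries, and across all genes tested it was -0.51. Cenpf and Mki67, the longest members at 11.0 and 10.03 kb, were at 0.108 and 0.241 RPKM, against 48.8 RPKM for the 0.931 kb Ube2c. In the BFP-negative group the 2 replicates differed by more than 2-fold in 16 members, and in the BFP-positive group in 7.

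Other genes of the cell cycle were read from the same fit. Of 55 further G2 and mitosis genes outside the member list, 11 rose, beside 7.6% of all genes tested, and none fell. Their median log2 fold change was 0.76. Cdca3, a mitotic entry factor, rose 4.11-fold from 6.75 and 8.44 to 31.8 and 30.6 CPM. Cdkn3, a phosphatase of cyclin-dependent kinases, rose 3.74-fold (adjusted p = 0.00623). Cenpn, which reads the Cenpa nucleosome, and Pimreg rose 5.57-fold and 4.36-fold, calls that were lost without BFP-positive replicate 2 (adjusted p = 0.0516 and 0.0670). Without that library the number of the 55 that rose was 6. Cohesin genes, which hold sister chromatids together, showed no call among 10 (0 at an unadjusted p under 0.05 and 0 in DESeq2), and all 10 had fitted values below 0 (median log2 fold change -0.26). Among all genes tested 7.6% rose and 3.51% fell.

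Of 29 S-phase genes 2 rose, beside 7.6% of all genes tested, and the median log2 fold change was 0.09. The 2 were Tk1 and Rrm2, which supply nucleotides. Tk1 was at 20.4 and 29.97 CPM and at 65.1 and 73.6 CPM (2.75-fold, adjusted p = 0.00290). Rrm2 was at 28.8 and 27.7 CPM and at 76.5 and 53.01 CPM (2.29-fold, adjusted p = 0.00740). The difference between the S-phase and mitotic lists was not tested.

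**Figure D5:**
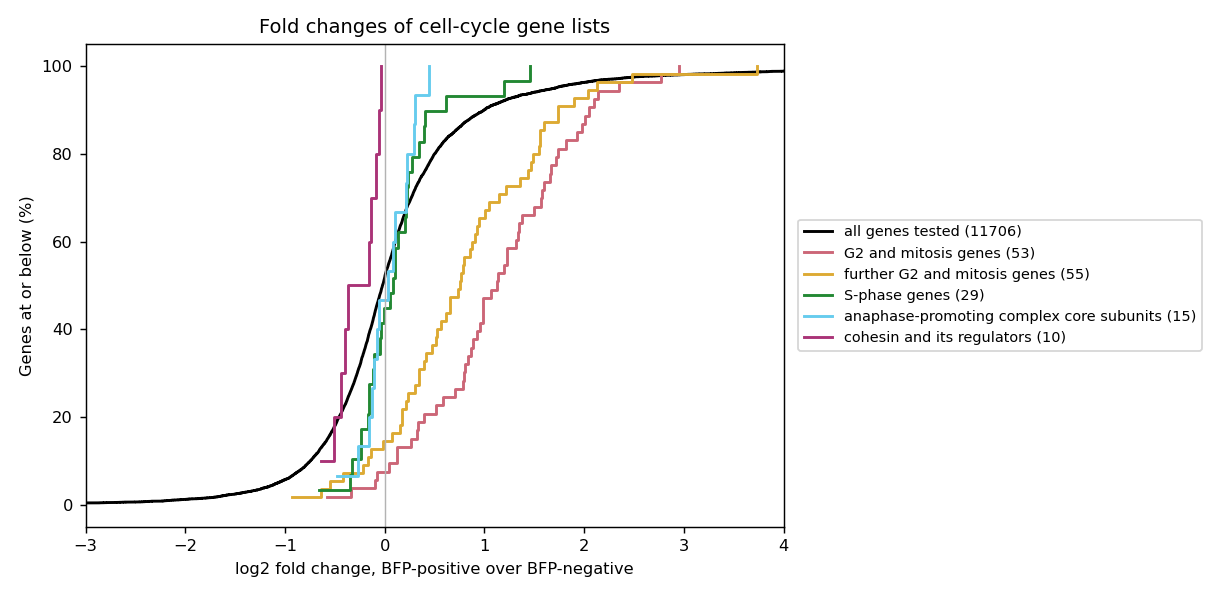
Cumulative share of genes (y axis, percent) at or below each log2 fold change (x axis, BFP-positive over BFP-negative; shown from -3 to 4) for all genes tested and 5 cell-cycle lists, with the number of genes in brackets. The curve of the 53 G2 and mitosis genes has its median at 1.13 and that of 55 further such genes at 0.76, while S-phase genes (0.09) and core subunits of the anaphase-promoting complex (0.03) have theirs near 0.

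Genes that govern entry into the cycle moved in both directions. Of 16 tested genes of G1 cyclins, kinases and Cdk inhibitors, 3 rose and 2 fell (median log2 fold change 0.43). Over all genes tested, 7.6% rose and 3.51% fell. Ccnd1, a D-type cyclin, rose 2.32-fold from 163 and 145 to 379 and 335 CPM (adjusted p = 0.000412). Ccnd2, the most abundant D-type cyclin here, fell 1.59-fold from 1594 and 1510 to 1004 and 954 CPM (adjusted p = 0.00319). Ccnd3 was at 304 and 371 CPM and at 424 and 533 CPM and did not pass (log2FC 0.50, SE 0.15, adjusted p = 0.0590); it passed in DESeq2 and limma-voom (0.00959 and 0.0421) and on leaving out BFP-negative replicate 2 or BFP-positive replicate 1 (0.0110 and 0.0298). The kinase gene Cdk6 fell 1.92-fold from 43.9 and 47.8 to 20.3 and 27.4 CPM, a call lost on leaving out BFP-negative replicate 2 (0.0704) or BFP-positive replicate 1 (0.147). The inhibitor of Cdk4 and Cdk6 encoded by Cdkn2d rose 2.32-fold from 79.6 and 85.3 to 194 and 189 CPM (adjusted p = 0.000495). Cdkn1b, which encodes p27, rose 2.65-fold from 6.43 and 4.57 to 17.8 and 11.4 CPM at the threshold itself (adjusted p = 0.0498), and it did not pass when BFP-negative replicate 2 (0.107) or BFP-positive replicate 1 (0.298) was left out. It did not pass either with library totals (0.0590), in limma-voom (0.0571), on log2 RPKM (0.0782) or on log2(RPKM + 1) (0.0528). Cdkn1a, which encodes p21, was at 112 and 110 CPM and at 166 and 149 CPM (log2FC 0.50, SE 0.14, adjusted p = 0.0523), and it passed in DESeq2 (0.0167) and limma-voom (0.0435). Wee1, the kinase that holds Cdk1 inactive, was at 30.5 and 28.5 CPM and at 36.7 and 29.9 CPM (log2FC 0.17, SE 0.22).

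Of 19 E2f, Rb and Mybl2-MuvB regulator genes, none passed in either direction (median log2 fold change 0.22). Among all genes tested 7.6% rose and 3.51% fell, so few calls would be looked for in a list of this size. At an unadjusted p under 0.05, 2 were higher and 3 lower, and DESeq2 called 0. Without BFP-positive replicate 2, 1 gene of the list was lower. Mybl2, which binds MuvB when G2 genes are activated, was at 5.14 and 7.65 CPM and at 8.32 and 6.01 CPM, with overlapping groups (log2FC 0.16, SE 0.45). E2f1, an activator of S-phase genes, was at 107 and 110 CPM and at 83.7 and 85.5 CPM (log2FC -0.37, SE 0.15, adjusted p = 0.165). E2f4, the E2f protein of the DREAM complex, was at 103 and 129 CPM and at 85.0 and 89.1 CPM (log2FC -0.42, SE 0.17, adjusted p = 0.152).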

How the data were processed

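RNA was read by SMART-Seq v4 full-length cDNA amplification, which marks no strand and adds no molecular identifiers, in 2 BFP-positive and 2 BFP-negative libraries. The authors deposited a table of whole-number counts for 27179 genes and, for each library, a list of log2 RPKM values, in which genes without counts have a finite value. The submitters' processing notes name Subread, featureCounts, limma and the builds GRCm38 and mm10, without versions. The 53 members and all gene lists were chosen with earlier results of these data known.

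Counts of 11706 genes passing edgeR's filter (minimum count 10, minimum total 15) were TMM-scaled and fitted with edgeR 4.0.16 (quasi-likelihood, R 4.3.3) on group alone. P-values were Benjamini-Hochberg adjusted over all of them, with a threshold of 0.05; the fit had 2 residual degrees of freedom. The fit was tested on simulated data. RPKM values were 2 to the power of the deposited log2 values and were used to compare levels between genes. Gene length is the one these values imply.

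Values are given for every member past the test, the 12 most abundant, the smallest p in each role group, up to 4 called genes of each other list and 10 regulators fixed by symbol. Other members, and Spc24, Cd34, Myb and Csf1r, were chosen after their values were seen. Titles give both sorted fractions of a replicate number the same code, but its meaning is not given, so the test has no block. Deviations correlated at 0.06 across genes, which cannot exclude a pairing. A fit with a block was an alternative. Alternatives were other scalings, filters and tools (DESeq2 1.42.0, limma 3.58.1), the log2 RPKM values and leaving out each library. Every count column belongs to a sample. Values of some marker genes are not reported here.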

Additional observations from a re-analysis of the deposited data

How the results depend on the processing

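The number of G2 and mitosis genes that rose was 22 with DESeq2 size factors, 18 with library totals, 23 without a filter and in DESeq2, 22 in limma-voom and with robust dispersion, 14 on the deposited log2 RPKM values and 19 on log2(RPKM + 1), with 0 lower in each. Left without the members that overlap another coding gene, a choice made after seeing the data, it was 16. Their median log2 fold change (1.13) was 1.06 with library totals, 1.14 in DESeq2, 1.25 in limma-voom, 1.19 on log2 RPKM, 0.67 on log2(RPKM + 1), a scale that compresses low genes, and 1.10 to 1.23 with 1 library left out. Over all genes, leaving out 1 library gave 559 to 921 higher and 245 to 408 lower, and log2(RPKM + 1) gave 629 lower. With the replicate number as a block, 26 members rose and none fell, the median was 1.24 and 760 of all genes fell; 2 chromosome structure, 3 spindle and 2 cytokinesis genes rose, as did 5 S-phase genes (1 fell) and 5 of the G1 list. Members gained under the block were Cdc25b, Top2a, Kif11, Kif2c and Ect2 (adjusted p = 0.0451, 0.0326, 0.0229, 0.0212 and 0.0217). The numbers are not shown to pair the libraries. Spindle genes that rose numbered 2 with DESeq2 size factors, without a filter, in DESeq2, with robust dispersion and on log2(RPKM + 1), and 1 to 4 with 1 library left out. Cytokinesis genes numbered 2 without a filter, in DESeq2 and in limma-voom, 0 with library totals and on log2 RPKM, and 0 to 2 with 1 library left out. Chromosome structure genes numbered 0 with library totals and on both RPKM scales, and 0 to 2 with 1 library left out; checkpoint genes numbered 0 on both RPKM scales, and 0 to 1. Centromere genes numbered 2 on log2 RPKM, and 1 to 4 with 1 library left out; entry genes numbered 5 to 8. In the G1 list 5 rose without a filter, 6 in DESeq2, and 1 to 2 fell with 1 library left out; 0 to 1 of the E2f list fell. Of the 55 further genes, 6 rose on log2 RPKM and 6 to 14 with 1 library left out. The share of members with the CHR letters was 40.0% in the 150 bases before the start, a window without the bases after it. With 2 libraries a group, precision is low for members under 10 CPM, whose median SE was 0.69. With 1 library left out, the lone library is assumed to vary like the other group.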
